A study of Mus musculus with 2 samples.

Results

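Growth hormone acts on hepatocytes through its receptor GHR, which signals by way of the kinase JAK2 to the transcription factors STAT5A and STAT5B. In liver this pathway drives the endocrine hormone IGF-1 and its carrier the acid-labile subunit (Igfals), induces the feedback inhibitors Socs2 and Cish, and sustains the male pattern of major urinary proteins (MUPs), the pheromone-binding lipocalins that mouse liver secretes. The 10 genes described here are Mup20, Mup3, Mup21, Ghr, Stat5a, Stat5b, Igf1, Igfals, Socs2 and Cish, taken as the rows of the deposited gene table that carry these symbols, 10 of 36808 genes in all. They were selected on their measured FPKM values in these same 2 libraries, so every difference given for them is a description and none was tested.

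RNA was sequenced from primary hepatocytes, liver parenchymal cells isolated from C57Bl6 mice and cultured in William E medium with serum, insulin and dexamethasone, a synthetic glucocorticoid. To one culture 1 µM GW3965 was given, a small molecule that activates the liver X receptors (LXR, nuclear receptors for oxysterols), and to the other DMSO, its solvent. There was 1 library per group, so no value below has a spread between replicates, and the ligand and any other difference between the cultures cannot be told apart. The labels do not give the sex or age of the mice, and no growth hormone is named among the additions to the medium. The table calls its second library GL. It was taken for GW3965, the other of the 2 labelled samples, a reading that is not certain.

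Levels are FPKM, fragment numbers scaled to transcript length and to the size of the library, as the authors deposited them. Low FPKM values moved in steps, which placed the libraries at about 59600000 fragments (DMSO) and 74100000 (GW3965). Ratios are log2 of FPKM + 1 with GW3965 divided by FPKM + 1 with DMSO, so a value below 0 is lower with GW3965, and low genes are understated. Over the 11796 genes that reached the minimum, 1 FPKM in at least 1 of the libraries, the median ratio was 0.01. Hepatocyte markers were present, with Apoa1 at 598 FPKM in DMSO and Apoa2 at 631, while Cps1, a urea cycle enzyme abundant in liver, was at 2.10 in GW3965 and lower in DMSO. Alb and Trf, the albumin and transferrin genes, were listed at 0 in GW3965 under the table's mark for loci with too many fragments and were left out.

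The difference that stands out among the 10 genes lies in Mup20, and the MUP genes are near copies of each other. The stretch of coding sequence below shows how far they can be told apart. It is the 60-base stretch within 1 exon of Mup20 that differs most from Mup3. In Mup20 it lies in exon 3 at chr4:62052637-62052696 (GRCm38, minus strand). Mup3 and Mup21 are shown as the other MUP genes of the set and Mup10 as an abundant paralogue. Capitals mark bases that differ from Mup20.
Mup20: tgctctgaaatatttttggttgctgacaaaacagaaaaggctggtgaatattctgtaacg
Mup3: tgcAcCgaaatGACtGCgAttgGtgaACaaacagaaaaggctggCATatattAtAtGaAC
Mup10: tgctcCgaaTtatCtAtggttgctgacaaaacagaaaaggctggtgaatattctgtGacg
Mup21: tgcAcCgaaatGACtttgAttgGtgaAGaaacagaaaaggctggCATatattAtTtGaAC

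In this stretch Mup3 differed from Mup20 at 19 of 60 bases, Mup21 at 17 and Mup10 at 5. Over the coding bases that aligned to Mup20, the 21 other annotated MUP genes were between 88.5% and 91.7% identical to it. Bases outside the alignment were left out, and in Mup1, for example, 540 of 705 were aligned. Of all 25-base words in the Mup20 transcript, 65.7% also occur in a transcript of another MUP gene or pseudogene, and of all 50-base words 50.1%. Mup3 was more distinct, with 38.2% of its 25-base words shared, while all such words of Mup15 and Mup19 were shared. A read that lies wholly in shared sequence cannot be placed by sequence alone. How the authors' counting divided such reads is not given in the sources used here. Levels of single MUP genes are uncertain to that extent.

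Mup20, also called darcin, encodes a male pheromone that binds a volatile attractant in urine. It stood at 53.5 FPKM in the DMSO library and at 23.4 in the GW3965 library. The level with GW3965 was 43.8% of that with DMSO, a log2 ratio of -1.16. Of the 11796 genes at the minimum FPKM, 43 had a lower ratio. Mup20 (ENSMUSG00000078672) lies on chromosome 4 at 61711268 to 61715192 in mm9, and its locus holds no other gene of the table. It has 1 annotated transcript, to which about 2962 fragments in DMSO and 1611 in GW3965 correspond. The exact 95% interval of the FPKM ratio from counting alone was 0.412 to 0.465, which takes no account of differences between cultures or of reads shared between paralogues. Such a narrow interval is not particular to Mup20. From counting alone Mup3 had 0.801 to 0.832, Stat5b 0.835 to 0.919 and Socs2 0.758 to 0.936. Ghr had 1.10 to 1.26, Igf1 1.11 to 1.21 and Cish 1.24 to 1.90, so these intervals also leave out no difference. Those of Stat5a, Igfals and Mup21 include it.

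In the authors' deposited table Mup20 was the 1 gene called among the 10, with p = 8.44e-09 and q = 9.80e-06. That table called 43 of 15090 tested genes, or 0.285%, and 18 of them, or 0.119% of those tested, were lower in GW3965. The deposited test rests on the reads of 2 libraries and compares those libraries, not the conditions. From the test statistic in the authors' deposited table, the standard error of the Mup20 log2 fold was 0.21, and the 95% interval of the fold was 0.331 to 0.580. For the 9 other genes the derived interval included no difference in every case, and p in the authors' deposited table ran from 0.192 to 0.963.

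**Figure D1:**
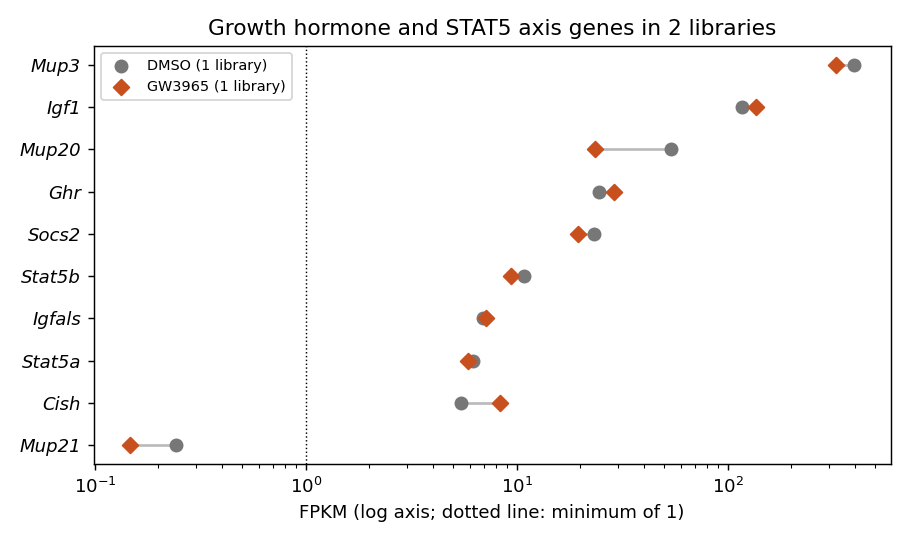
FPKM of the 10 genes on a log axis, with grey circles for the DMSO library and orange diamonds for the GW3965 library (1 library each). The pair of points for Mup20 is far apart at 53.5 and 23.4, and Mup21 lies below the minimum of 1 in both libraries.

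Mup3 was the most abundant of the 10 genes. This liver-expressed gene (chromosome 4, 61744510 to 61748376, mm9) stood at 397 FPKM in DMSO and at 324 in GW3965. The log2 ratio was -0.29. Its derived standard error was 0.22 and its fold interval 0.601 to 1.11. Mup3 was thus 7.42 times as abundant as Mup20 in the DMSO library and 13.8 times in the GW3965 library, on the length-scaled FPKM values. Mup21 (chromosome 4, 61808966 to 61811897) was barely detected, at 0.243 and 0.147 FPKM. These levels correspond to about 10 and 7 fragments, and the counting interval of the Mup21 ratio, 0.182 to 1.64, spans lower and higher values. With so few fragments the direction of a difference in Mup21 was not resolved.

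The remaining MUP genes of the table give the setting for Mup20. Of 21 genes named Mup, 10 reached the minimum FPKM, 8 lay between 0 and the minimum and 3, Mup4, Mup6 and Mup8, were listed at 0 in both libraries. Among the 10, Mup20 was the 1 gene at least 1.5-fold lower, and 0 were at least 1.5-fold higher, where 1.33% and 1.02% of all genes at the minimum were. The 9 others had ratios between -0.29 and 0.06, with 7 of the 9 below 0 and a median of -0.13.

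Mup10, nearly as abundant as Mup3, had 387 FPKM in DMSO and 333 in GW3965 (-0.22). Mup17 had 30.8 and 28.1 (-0.13). Mup19, at 25.3 and 23.7 (-0.09), stood below Mup20 in the DMSO library and close to it in the GW3965 library. Mup7 had 14.6 and 12.6 (-0.19), in a locus it shares with Mup2. Mup15 had 14.5 and 15.1 (0.06) and Mup14 3.74 and 2.96 (-0.26), and these paralogues share a locus in the table. Mup11 had 6.68 and 6.83 (0.03) and Mup16 3.96 and 3.66 (-0.09).

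The sum over the 21 genes depends less than single values on how reads were divided among paralogues. It came to 939 FPKM in DMSO and to 776 in GW3965 (-0.28), and without Mup20 it was 886 and 752 (-0.24). Mup20 made up 5.70% of the sum in DMSO and 3.02% in GW3965, while Mup3 and Mup10 together made up 83.5% and 84.7%. Of 21 MUP pseudogenes, 18 were listed at 0 in both libraries, and the highest value of any was 0.305 FPKM.

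**Figure D2:**
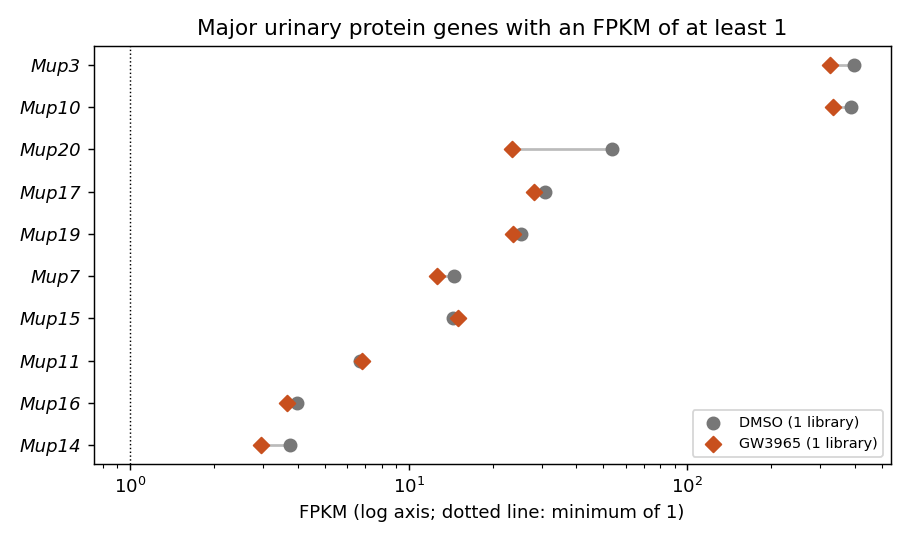
FPKM of the 10 MUP genes at the minimum of 1, on a log axis, with grey circles for DMSO and orange diamonds for GW3965 (1 library each). Points of 9 genes lie close together, and those of Mup20 are apart, at 53.5 in DMSO and 23.4 in GW3965.

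MUP genes are expressed by hepatocytes, and in bulk RNA fewer cells of a type and less RNA per cell cannot be told apart. Of the 10 hepatocyte markers examined, 8 had usable values and all 8 reached the minimum. Their summed FPKM was 4125 in DMSO and 3600 in GW3965, with 5 of 8 ratios below 0 and 3 above, from -0.46 for Serpina1a to 0.31 for Cps1, and a median of -0.14. Most of the difference between the sums came from the fibrinogen gene Fgb, without which they were 1667 and 1600.

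Endothelial markers summed to 126 and 151, with 6 of 6 above 0, and stellate and fibroblast markers to 22.3 and 27.9, with 6 of 6 at the minimum above 0. Macrophage markers summed to 100.1 and 117, with 3 of 6 above 0, and without Cd68 to 25.2 and 23.5, the opposite direction. Lymphocyte markers summed to 1.37 and 1.27, with 1 gene at the minimum. Erythroid markers summed to 0.214 and 0.440, with 0 genes at the minimum. Alas2, the highest of the erythroid markers, corresponds to only about 9 fragments in DMSO and 23 in GW3965. Cholangiocyte markers summed to 19.6 and 21.6. No marker at the minimum passed 1.5-fold in any of these lists, where 97.7% of all genes at the minimum lay within it. A count of 0 is near that background. The median ratio of all genes at the minimum was 0.01, and their share above 0 was not counted. The part of the markers in the Mup20 difference was not tested.

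The receptor and its transcription factors differed little between the libraries. Ghr, the growth hormone receptor (chromosome 15, 3267760 to 3533492, mm9), was at 24.4 FPKM in DMSO and at 28.7 in GW3965 (log2 ratio 0.23), with a derived fold interval of 0.784 to 1.77. Stat5b, the main STAT5 form in liver (chromosome 11, 100642045 to 100712038), had 10.8 and 9.43 (-0.17), with an interval of 0.625 to 1.23. Receptor message was thus higher and Stat5b message lower with GW3965, and both derived intervals include no difference.

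Stat5a, the closely related form encoded next to Stat5b (locus 100720665 to 100800854), had 6.20 and 5.84 FPKM (-0.07). Its locus in the table also holds Stat3 and AL591466.1, and its derived standard error on the log2 scale was 1.85, larger than that of 97.8% of the genes at the minimum, whose median was 0.28. The fold interval of Stat5a, 0.0759 to 11.7, allows large differences in either direction. Stat5b was 1.74 times as abundant as Stat5a in DMSO and 1.61 times in GW3965.

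The endocrine outputs of the axis were close to level. Igf1, which encodes the growth factor through which growth hormone promotes body growth (chromosome 10, 87289122 to 87399792, mm9), was at 117 FPKM in DMSO and at 136 in GW3965. Its log2 ratio was 0.21 and its derived fold interval 0.818 to 1.64. Igfals, whose product holds IGF-1 and its binding protein in a long-lived complex in blood (chromosome 17, 25014600 to 25018955), had 6.91 and 7.12 FPKM (0.04), with an interval of 0.725 to 1.47. Igf1 message was 17.0 times as abundant as Igfals message in DMSO and 19.0 times in GW3965.

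The feedback inhibitors Cish and Socs2 lay on opposite sides of 0. Cish, an SH2-domain protein induced by STAT5 that dampens cytokine receptor signalling (chromosome 9, 107194766 to 107205115, mm9), was at 5.43 FPKM in DMSO and at 8.30 in GW3965. Its FPKM ratio was 1.53 and its log2 ratio with the pseudocount 0.53, just short of the 1.5-fold threshold at 0.58. Of all genes at the minimum, 97.0% had a smaller ratio in size. Socs2, which limits growth hormone signalling and body size (chromosome 10, 94847996 to 94879814), had 23.3 and 19.6 FPKM (-0.24).

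The derived standard error of Cish was 0.58 on the log2 scale, with a fold interval of 0.693 to 3.37, and Cish shares its locus with Gm17040 and Gm17041. The Socs2 interval was 0.532 to 1.33. In the authors' deposited table Cish had p = 0.294 and q = 1.000, and it was not called. Whether the Cish and Socs2 ratios differ from each other was not tested. Socs2 was 4.28 times as abundant as Cish in DMSO and 2.36 times in GW3965.

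Cish had the highest ratio of the 10 genes. The window around its annotated start carries a pair of motifs of the STAT5 type, TTCNNNGAA, which reads the same on both strands. Whether the motifs bear on the ratio was not tested. The window covers 250 bases before the start and 50 after it, chr9:107296409-107296708 on the plus strand of GRCm38.p6, from RefSeq. Capitals mark the motif.
Cish: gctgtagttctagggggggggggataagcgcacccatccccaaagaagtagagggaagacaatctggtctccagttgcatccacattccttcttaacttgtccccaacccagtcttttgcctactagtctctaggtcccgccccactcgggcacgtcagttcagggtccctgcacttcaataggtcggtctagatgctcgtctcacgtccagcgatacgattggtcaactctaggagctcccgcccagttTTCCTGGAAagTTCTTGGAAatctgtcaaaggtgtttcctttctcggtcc

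The Cish motifs begin at positions 251 and 262 of the window, counted from 1 at its 5′ end, and do not overlap. RefSeq windows were found for 8 of the 10 genes, all but Mup20 and Socs2, in 13 windows. The motif was present for 2 of these genes, Cish and Igfals, and for Igfals in 2 of its 3 windows, as TTCTCAGAA and TTCCTAGAA. Counted by window, 3 of the 13 held it. Of 32851 windows of 300 bases over the genome, 8.3% held the motif. Windows of 1 chromosome, which holds none of the 10 genes, were left out of that count. It was in the window of 0 of the 14 MUP genes that had one, a set without Mup20. The LXR-type direct repeat, 2 copies of AGGTCA with 4 bases between them, searched on both strands, was in 0 of the 8 genes and in 0.0152% of the 32851 windows. A match of letters is a description of sequence, not a site of binding.

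Of the 9 genes at the minimum, 0 were at least 1.5-fold higher and 1, Mup20, was at least 1.5-fold lower. Over all genes these shares were 1.02% and 1.33%. The median ratio of the 9 was -0.07, and of the 7 that are not MUP genes it was 0.04, with 4 above 0 and 3 below. Apart from the MUP genes, ratios ran from -0.24 for Socs2 to 0.53 for Cish.

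In DMSO the order of levels was Mup3, Igf1, Mup20, Ghr, Socs2, Stat5b, Igfals, Stat5a, Cish and Mup21. In GW3965 Ghr stood above Mup20, and Cish above Igfals and Stat5a. Without replicates, no spread is at hand to say which neighbours in that order differ.

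**Figure D3:**
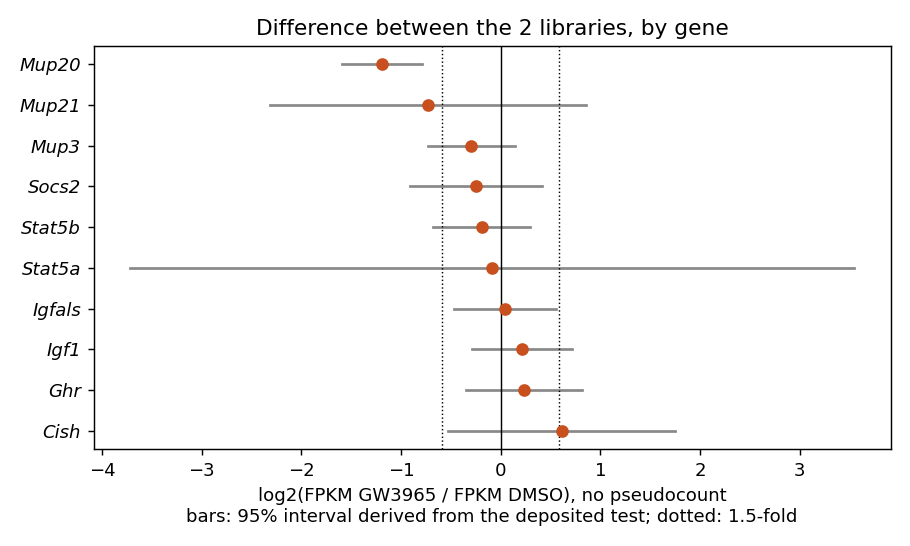
Log2 of the FPKM ratio of GW3965 to DMSO without a pseudocount for the 10 genes (points), with the 95% interval derived from the deposited test statistic (bars) and dotted lines at 1.5-fold. The bar of Mup20 (-1.60 to -0.79) lies below 0, those of the 9 others include 0, and that of Stat5a (-3.72 to 3.55) is the widest.

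Among other genes of growth hormone receptor signalling, 26 of 28 reached the minimum and 0 of the 26 passed 1.5-fold, where 97.7% of all genes at the minimum lay within 1.5-fold. With a share of that size, counts of 0 in lists this short are near the background. Of the 26 genes 13 were above 0 and 13 below, from -0.43 to 0.23 with a median of 0.00. Jak2, the kinase bound to the receptor, had 13.1 FPKM in both libraries (-0.00). Socs3, another feedback inhibitor, had 14.0 and 13.3 (-0.07), and Stat3, which shares the Stat5a locus, had 55.8 and 60.6 (0.12).

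Sirpa, Prlr and Irs2 were among the genes with the largest ratios in size on this list. Sirpa, a membrane protein that recruits SH2-domain phosphatases, had 8.20 and 5.85 FPKM (-0.43). Prlr, the prolactin receptor, had 1.74 and 2.20 (0.23), and Irs2, an insulin receptor substrate, had 1.60 and 1.22 (-0.23).

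In the IGF system beyond Igf1 and Igfals, 7 of 14 genes reached the minimum, 0 passed 1.5-fold and the median was 0.09. Igfbp1, a binding protein under insulin control, was the most abundant at 257 and 232 FPKM (-0.14). Igfbp4 had 120.0 and 96.4 (-0.31) and Igfbp3, which joins IGF-1 and the acid-labile subunit in the circulating complex, had 25.9 and 31.0 (0.25). Igfbp2 had 8.52 and 9.66 (0.16) and Igf2r, which clears IGF-2, had 19.5 and 21.9 (0.16). Igf1r, the IGF-1 receptor, was at 0.880 and 1.00 FPKM (0.09).

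Many genes that depend on the sex-specific pattern of growth hormone lay below the minimum. So did most of all 36808 genes, of which 11796 reached it. Of 14 male-biased genes 9 lay below the minimum in both libraries, among them Cyp4a12b and Hsd3b5, listed at 0, and Elovl3 at 0.0183 and 0.0148 FPKM. Of the 5 at the minimum, 1 was at least 1.5-fold lower and 0 higher, with a median of -0.15. That 1 was Selenbp2, at 1.14 and 0.272 FPKM (-0.75), with a derived standard error of 5.71 on the log2 scale. Reads of Selenbp2 can be shared with its close paralogue Selenbp1, and those of Gstp1 with Gstp2. Cyp7b1, an oxysterol hydroxylase, had 1.48 and 1.00 (-0.31). Gstp1, a glutathione transferase, had 674 and 609 (-0.15) and Bcl6, a transcriptional repressor that opposes STAT5 in liver, had 10.5 and 11.1 (0.07).

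Of 21 female-biased genes 19 were found and 8 reached the minimum, with 0 past 1.5-fold and a median of 0.07. Cyp2c69 had 6.97 and 8.02 FPKM (0.18), A1bg 1.61 and 1.82 (0.11), Cyp2b9 1.31 and 1.08 (-0.15) and Cyp3a44 0.911 and 1.06 (0.11). These cytochrome P450 genes belong to families of close copies, so their single values are uncertain.

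Among 11 further STAT5 or acute growth hormone response genes, all at the minimum, 2 were at least 1.5-fold lower and 0 higher, with a median of -0.11. Onecut1, which encodes the liver transcription factor HNF6, had 1.24 and 0.409 FPKM (-0.67), with a derived standard error of 0.70. Fos, an immediate early gene, had 5.31 and 3.17 (-0.60). Ccnd1, the cell cycle gene cyclin D1, had 32.0 and 23.1 (-0.45) and Pim1, a kinase gene induced by STAT5, had 11.0 and 14.0 FPKM (0.32). In the authors' deposited table Onecut1 had p = 0.0221 and Fos p = 0.0270, both with q = 1.000 and without a call. Over all these lists 57 of 88 genes reached the minimum, 3 were at least 1.5-fold lower, 0 higher, and 0 were called in the authors' deposited table. Among all genes at the minimum 1.33% were lower and 1.02% higher by this rule. Of the 3, Selenbp2 and Onecut1 reached the minimum through the DMSO library alone, so they could enter the count because they were high there.

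**Figure D4:**
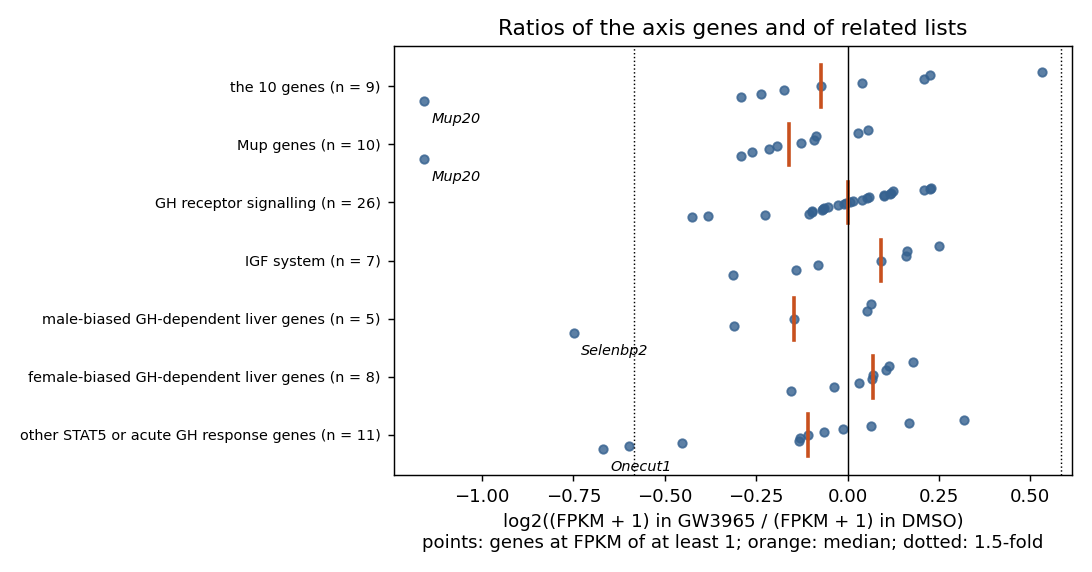
Log2 ratio of GW3965 to DMSO, with a pseudocount of 1, of genes at the minimum FPKM. Rows show 9 of the 10 axis genes, the MUP genes and 5 lists of related genes. Mup21 lies below the minimum and is not drawn, and Mup20 and Mup3 stand in both the axis row and the MUP row. Points are genes, orange lines are medians and dotted lines mark 1.5-fold. Mup20 at -1.16 lies farthest from 0, and beyond it Selenbp2, Onecut1 and Fos pass the lower line.

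The 5 genes closest to Mup20 in level over the 2 libraries were found by the distance of their log2(FPKM + 1) values. They were Id3, a transcriptional inhibitor (43.3 and 28.7 FPKM, distance 0.41), Apof, an apolipoprotein (39.4 and 22.5, 0.44), Xaf1 (40.6 and 27.1, 0.44), the interferon-inducible GTPase Iigp1 (54.9 and 32.4, 0.45) and the serpin Serpina10 (38.7 and 22.5, 0.46). With 2 libraries this likeness rests on 2 values per gene. Their ratios ran from -0.78 for Apof to -0.57 for Xaf1, a direction that choosing genes by these same values fixes.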

How the data were processed

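RNA from cultured hepatocytes was sequenced with a TruSeq kit, 1 library for DMSO and 1 for GW3965, per the labels' protocols. CASAVA and TopHat2 2.0.6 come before Cufflinks 2.0.2 and Cuffdiff in the submitters' processing notes, which name the builds mm9 and NCBIM37. The sources used here do not say how strand, scaling and reads that match several genes were handled. The authors deposited FPKM for each library. Per the file headers they also deposited a p-value, a q-value and a test statistic, the last of these a score.

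Genes that reached 1 FPKM in at least 1 of the libraries were counted at 1.5-fold on the log2(FPKM + 1) scale, after 7 genes marked for too many fragments were left out. With 1 library per group no test was made. Standard errors are the log2 fold over the deposited score, both in size. Depth was taken from 2565 low genes, whose most frequent FPKM ratio of DMSO to GW3965 was 1.24. Divided by that value, 65.1% of them were whole-number ratios (numbers up to 10, tolerance 0.1%), and 1.36% were after a shift of 3%. Genes with 1 transcript gave the scale. Intervals from fragment numbers cover counting error only. Derived intervals rest on the standard errors from the deposited score. The table's starts were raised by 1, since 58.5% of 19846 loci with 1 gene then matched GENCODE lengths. MUP sequences came from GENCODE M21 (GRCm38). Words were compared among MUP genes and pseudogenes on either strand.

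The 10 genes and the lists were chosen with earlier results of these data known. Named were the 10 genes, MUP genes at the minimum, up to 4 genes per list with the largest ratios in size and the 5 genes nearest to Mup20. A gene that this rule names is not reported here. Jak2, Socs3, Stat3, Igfbp1, Igf1r, Elovl3, Cyp4a12b, Hsd3b5, the MUP genes listed at 0 and the marker genes were named after their values were seen. Alternatives were other pseudocounts, minimums and thresholds, centring, scaling to 1 sum and the genes the authors tested. The software was Python 3.11.15 with Biopython 1.88, pandas 2.3.3, numpy 2.4.6, matplotlib 3.10.9 and scipy 1.17.1.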

Additional observations from a re-analysis of the deposited data

How the results depend on the processing

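With a pseudocount of 0.1 the number of the 10 genes at least 1.5-fold higher was 1 (Cish), against 0 in the main setting and under the 7 other alternatives run. The number at least 1.5-fold lower was 1 (Mup20) under each alternative, 2-fold included. Under the 4 alternatives run for each gene, Mup20 lay between -1.19 and -1.04 and Cish between 0.35 and 0.60. All 10 genes kept their direction, which these alternatives could not change. A pseudocount leaves the sign of a ratio as it is. Centring subtracted 0.01 and scaling multiplied GW3965 by 1.002, too little to turn the smallest ratio, 0.04 for Igfals. The median of the 9 genes at the minimum was -0.07 and changed sign to 0.04 without the MUP genes. No paired analysis was possible because there is 1 library of each kind. Depth limits Mup21, at about 10 and 7 fragments.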

Other observations

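Genes around the MUP cluster, which spans 59969676 to 61811897 on chromosome 4 in mm9, were close to level in the 2 libraries. Within the cluster and 500 kb on either side the table holds 41 genes not named Mup, of which 16 reached the minimum FPKM. On the scale with a pseudocount of 1, 0 of these 16 passed 1.5-fold, where 97.7% of all genes at the minimum lay within it, and their ratios ran from -0.20 to 0.43 with a median of 0.00. The copper transporter gene Slc31a1 was at 22.6 FPKM in DMSO and at 23.9 in GW3965 (0.08), and Alad, an enzyme of heme synthesis, had 25.4 and 22.8 (-0.15). Rnf183, at 1.44 and 2.28 FPKM, had the highest ratio, 0.43, and without the pseudocount its fold was 1.59. Gm12909, which lies just beyond Mup3, was at 0.511 and 0.274 FPKM, below the minimum. These genes were picked after their values were seen.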
